A study of Mus musculus with 25 samples.

Results

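The Gimap genes encode GTPases of the immunity-associated protein family. The 8 Gimap genes in the table of 30749 genes (Gimap1, Gimap3, Gimap4, Gimap5, Gimap6, Gimap7, Gimap8 and Gimap9) were taken by symbol and followed through 21 RNA-seq libraries, beside the T cell receptor signalling genes Cd3e and Cd3g. The libraries came from tumour-associated macrophages sorted from mouse glioblastoma, a brain tumour. Macrophages derived from monocytes (MDM), which enter the tumour from the blood, made up 2 libraries from type 2 transplanted, 1 from type 2 spontaneous, 4 from type 1 transplanted and 2 from type 1 spontaneous tumours. Microglia, the resident macrophages of the brain, made up 3 libraries from each of these 4 tumour classes. Microglia of normal brain, also labelled in the series, are not analysed here. The labels give no strain, age, driver gene or sort gate. They do not say whether each library was made from its own animal, so a p-value measures only the spread between libraries, which can be technical. The family was chosen for its pattern in these libraries, so the levels of its members and of Cd3e and Cd3g are a description and carry no test.

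GIMAP proteins carry an AIG1-type GTP-binding domain, and several are anchored in the membranes of organelles. They are known mainly from lymphocytes. Loss of Gimap1 in mice depletes mature T and B cells, and loss of Gimap5 in mice and rats causes lymphopenia. Gimap4 affects the death of T cells. Human GIMAP6 binds the autophagy protein GABARAPL2.

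The 8 genes lie in one cluster on chromosome 6 of GRCm38, from 48647186 to 48770851 (124 kb), in the order Gimap8, Gimap9, Gimap4, Gimap6, Gimap7, Gimap1, Gimap5 and Gimap3. Gimap6 and Gimap3 lie on the minus strand and the other 6 genes on the plus strand. The promoters of 5 members follow, because some members had at least 168 normalised counts in every microglia library (Gimap1, Gimap6 and Gimap9 below) and others were at 0 in some of the 12 (Gimap4 in 2 and Gimap7 in 6). Each is the reference sequence of RefSeq GRCm38.p6 from 250 bases before the annotated start to 50 after it, 5′ to 3′ on the gene's strand. Capitals mark GGAAGT, an ETS-type motif, or its reverse complement ACTTCC. The positions are chr6:48738797-48739096 (plus strand) for Gimap1, chr6:48708195-48708494 (minus strand) for Gimap6, chr6:48675885-48676184 (plus strand) for Gimap9, chr6:48684328-48684627 (plus strand) for Gimap4 and chr6:48718371-48718670 (plus strand) for Gimap7.
Gimap1: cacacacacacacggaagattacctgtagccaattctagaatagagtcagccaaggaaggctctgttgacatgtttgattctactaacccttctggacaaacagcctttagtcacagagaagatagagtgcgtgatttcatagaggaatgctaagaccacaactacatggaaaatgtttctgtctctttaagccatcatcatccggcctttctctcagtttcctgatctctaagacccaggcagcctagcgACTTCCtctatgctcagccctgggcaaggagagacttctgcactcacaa
Gimap6: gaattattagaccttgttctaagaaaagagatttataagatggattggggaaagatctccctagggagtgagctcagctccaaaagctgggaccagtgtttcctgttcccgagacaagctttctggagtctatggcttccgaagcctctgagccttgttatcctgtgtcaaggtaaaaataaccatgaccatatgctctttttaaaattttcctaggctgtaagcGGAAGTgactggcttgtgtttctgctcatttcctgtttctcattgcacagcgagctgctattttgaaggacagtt
Gimap9: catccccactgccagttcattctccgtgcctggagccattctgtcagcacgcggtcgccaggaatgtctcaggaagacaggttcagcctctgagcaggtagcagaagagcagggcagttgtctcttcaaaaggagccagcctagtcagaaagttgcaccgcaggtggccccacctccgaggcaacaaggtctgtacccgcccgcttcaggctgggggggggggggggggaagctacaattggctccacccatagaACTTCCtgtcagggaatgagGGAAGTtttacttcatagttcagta
Gimap4: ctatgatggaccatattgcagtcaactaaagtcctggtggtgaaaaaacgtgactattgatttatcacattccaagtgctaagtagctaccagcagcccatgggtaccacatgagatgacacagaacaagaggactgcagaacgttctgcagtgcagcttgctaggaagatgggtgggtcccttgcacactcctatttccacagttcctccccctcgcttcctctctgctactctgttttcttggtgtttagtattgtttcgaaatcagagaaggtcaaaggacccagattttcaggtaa
Gimap7: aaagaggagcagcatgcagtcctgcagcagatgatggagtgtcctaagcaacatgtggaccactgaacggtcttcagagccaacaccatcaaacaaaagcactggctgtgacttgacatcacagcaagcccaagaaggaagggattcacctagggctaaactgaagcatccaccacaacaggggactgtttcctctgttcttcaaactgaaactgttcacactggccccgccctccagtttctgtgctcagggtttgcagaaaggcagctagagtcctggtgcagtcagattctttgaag

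GGAAGT, searched on both strands, occurred in the promoters of 4 of the 8 members. Its first base lay at +2 in Gimap1, at -25 in Gimap6, at +6 and +26 in Gimap9, and at -216 and -44 in Gimap5, counted from the annotated start as +1. The windows of Gimap3, Gimap4, Gimap7 and Gimap8 do not hold these letters. Of 32851 promoters of the same length, 23.8% held the motif. Another pair of motifs was searched in the same way. TGTGGT (Runx-type) was in the promoters of 3 of 8 members and in 16.8% of all promoters. CCACCC (Klf-type) was in those of 5 of 8 members and in 31.5% of all promoters. Gimap8 has 2 promoters, and 1 of them held CCACCC. Counted by promoter, as for all promoters, the members held GGAAGT in 4, TGTGGT in 3 and CCACCC in 5 of 9. None of the 3 motifs, on either strand, contains another. The 3 motifs were chosen with the levels and the promoter sequences of the members known, and a match in a promoter is not a measured binding site.

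The libraries held 26530069 to 50365607 reads each. Each marker sum was higher in every library of its own labelled cell type. The summed normalised count of 7 microglia markers (such as Tmem119) was 6999 to 188192 in MDM and 445993 to 1091482 in microglia. The sum of 7 MDM markers (such as Ccr2) was 68391 to 286297 in MDM and 1539 to 18670.3 in microglia. Some MDM libraries also held many microglia marker counts. The microglia sum was 153558.5 beside an MDM sum of 83864 in type 1 spontaneous replicate 1 and 108394 beside 96051 in type 2 spontaneous MDM. In type 2 transplanted replicate 3 it was 188192 beside 247226. The part of microglia RNA in the Gimap levels of these libraries was not tested. Lymphocyte transcripts stood beside these markers. The 6 T cell markers in the table (Cd3d, Cd3e, Cd3g, Cd247, Lck and Lat) summed to 17573 and 3287 in type 2 transplanted, 2444 in type 2 spontaneous, 97098, 93579, 108720.3 and 73727 in type 1 transplanted and 6521 and 5766 in type 1 spontaneous MDM. In the 4 type 1 transplanted MDM libraries that sum was of the size of their MDM marker sum, 68391 to 96609. Among microglia it was 1549.5 and 2810.0 in replicates 1 and 2 from type 1 transplanted tumours. The other 10 microglia libraries held 2.6 to 374. Of the 17573 in type 2 transplanted MDM replicate 1, Cd3e and Cd3g made up 1780.5. Which cells gave the other T cell marker counts was not tested. In bulk RNA, fewer cells of a type and less RNA per cell cannot be told apart, and the part of lymphocyte RNA in the Gimap levels was not tested.

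All 8 members had their highest group mean in type 1 transplanted MDM, and each lay above both type 1 spontaneous MDM libraries in all 4 of those libraries, as did 20.4% of all tested genes. The members were chosen on these libraries, so nothing is read from that count. For Gimap9 alone, type 2 transplanted replicate 1 reached into their range. The sum of the 8 genes was 66289 and 7925 normalised counts in type 2 transplanted MDM, 8408 in type 2 spontaneous MDM, 113014, 122517, 107147 and 103507 in type 1 transplanted MDM and 6275 and 6639.6 in type 1 spontaneous MDM. Type 1 transplanted MDM averaged 111546 ± 8296 (SD, n = 4), which was 0.367% to 0.450% of all reads of those libraries. Type 2 transplanted replicate 1 came next, and its replicate 3 lay below the single type 2 spontaneous library, so these groups could not be ordered beyond their spread. In microglia the sum was 1688 ± 767 in type 2 transplanted, 1609.8 ± 257 in type 2 spontaneous, 3133 ± 1559 in type 1 transplanted and 1772 ± 1115 in type 1 spontaneous tumours (SD, n = 3 each). These 4 groups overlapped, and the highest microglia library, 4392, lay below the lowest MDM library, 6275.

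**Figure D1:**
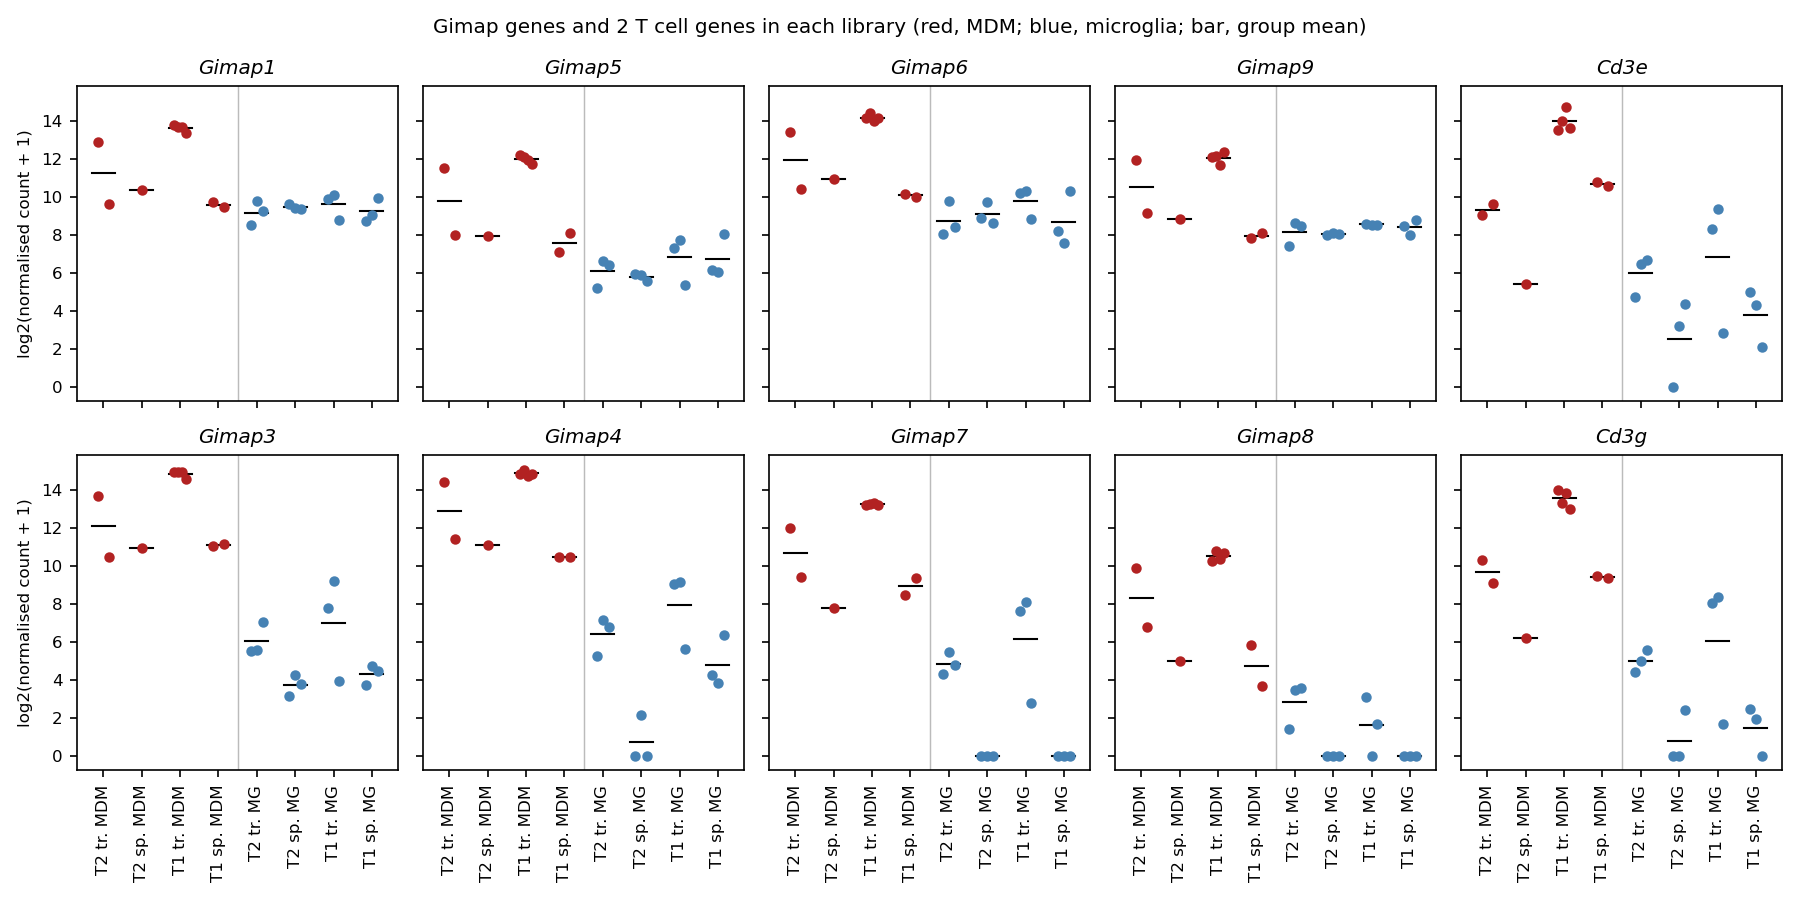
Level of each Gimap gene and of Cd3e and Cd3g in 21 libraries, as log2(normalised count + 1) on the vertical axis; points are libraries, bars are group means, T1 and T2 are tumour types 1 and 2, tr. is transplanted, sp. is spontaneous and MG is microglia. The 4 members of the top row have at least 36.1 normalised counts in every microglia library, and Gimap7 and Gimap8 in the bottom row sit at 0 in all 6 spontaneous microglia libraries.

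Gimap1, Gimap5, Gimap6 and Gimap9 were present in both cell types. Gimap1 had 7738 and 801 normalised counts in type 2 transplanted MDM, 1307 in type 2 spontaneous MDM, 14199, 12957, 13309.6 and 10456 in type 1 transplanted MDM, and 836 and 697 in type 1 spontaneous MDM. In microglia its normalised counts were 363, 871 and 606 in type 2 transplanted, 790.2, 669 and 658 in type 2 spontaneous, 951, 1112 and 445 in type 1 transplanted and 429.7, 530.0 and 982 in type 1 spontaneous tumours. Type 1 transplanted MDM and type 2 transplanted replicate 1 were high, type 2 spontaneous MDM lay just above the highest microglia library, and the other MDM libraries lay inside the microglia range. The 4 microglia groups overlapped each other. The fitted MDM against microglia difference of Gimap1 was 1.84 ± 0.33 (log2 with the standard error of the fit), and it was 0.57 once the 4 type 1 transplanted MDM libraries and type 2 transplanted MDM replicate 1 were left out.

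Gimap6 had 11137 and 1358 normalised counts in type 2 transplanted MDM, 1965 in type 2 spontaneous MDM, 18419, 21644, 16139 and 17989.6 in type 1 transplanted MDM, and 1146 and 1028 in type 1 spontaneous MDM. In microglia its normalised counts were 267, 874 and 334 in type 2 transplanted, 467, 854 and 392 in type 2 spontaneous, 1164, 1256 and 463 in type 1 transplanted and 295, 187 and 1269 in type 1 spontaneous tumours. Type 1 spontaneous MDM lay inside the microglia range of Gimap6, and the other MDM libraries lay above it. Gimap9 had 3924 and 564 normalised counts in type 2 transplanted MDM, 452 in type 2 spontaneous MDM, 4394, 4495, 3345 and 5244 in type 1 transplanted MDM, and 226 and 273 in type 1 spontaneous MDM. Its microglia libraries held 168 to 443 normalised counts with a median of 357, and type 1 spontaneous MDM lay inside that range. Gimap9 is little described functionally, and it shares 689 bases with the lncRNA Gm46958, which itself had 0 to 20.1 normalised counts. Gimap5 had 2983 and 258 normalised counts in type 2 transplanted MDM, 249 in type 2 spontaneous MDM, 4718, 4356, 3921 and 3354 in type 1 transplanted MDM, and 137 and 268 in type 1 spontaneous MDM. In microglia Gimap5, the member tied to lymphocyte survival in rodents, held 36.1 to 261 with a median of 66.8, and type 1 spontaneous replicate 3 was the highest of them. In type 1 spontaneous tumours the ratio of the MDM mean to the microglia mean was 1.19 for Gimap1, 1.54 for Gimap5, 1.86 for Gimap6 and 0.709 for Gimap9. Without type 1 spontaneous microglia replicate 3 it was 3.03 for Gimap5 and 4.51 for Gimap6.

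Gimap3, Gimap4, Gimap7 and Gimap8 separated the cell types far more widely. Gimap4 had 22172 and 2716 normalised counts in type 2 transplanted MDM, 2235 in type 2 spontaneous MDM, 29224, 34926, 27106 and 30153 in type 1 transplanted MDM, and 1405 and 1435 in type 1 spontaneous MDM. In microglia its normalised counts were 37.7, 142 and 108 in type 2 transplanted, 0, 3.46 and 0 in type 2 spontaneous, 529.5, 570.5 and 49.2 in type 1 transplanted and 17.9, 13.1 and 82.2 in type 1 spontaneous tumours. Every MDM library lay above every microglia library, and type 2 spontaneous microglia were at or near 0. Gimap7 had 4114 and 680.3 normalised counts in type 2 transplanted MDM, 221 in type 2 spontaneous MDM, 9379.7, 9929.5, 10279 and 9706 in type 1 transplanted MDM, and 356 and 663 in type 1 spontaneous MDM. In microglia its normalised counts were 18.9, 42.6 and 26.9 in type 2 transplanted, 0, 0 and 0 in type 2 spontaneous, 200.1, 269.9 and 5.96 in type 1 transplanted and 0, 0 and 0 in type 1 spontaneous tumours. Gimap7 had no read in any of the 6 spontaneous microglia libraries and had reads in all 6 transplanted ones. A count of 0 allows up to 3 reads, which is 2.57 to 4.84 normalised counts in those libraries. Against that limit, averaged over the 6 libraries, Gimap7 was at least 119-fold higher in spontaneous MDM and at least 27.0-fold higher in transplanted microglia than in spontaneous microglia. The second bound was 16.9 without type 1 transplanted microglia replicate 2 and 6.77 without replicates 1 and 2.

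Gimap3 had 13281 and 1438 normalised counts in type 2 transplanted MDM, 1948 in type 2 spontaneous MDM, 31425, 32448, 31729 and 24982 in type 1 transplanted MDM, and 2112 and 2264 in type 1 spontaneous MDM. Its microglia libraries held 44.3, 46.5 and 132 in type 2 transplanted, 7.79, 18.5 and 12.8 in type 2 spontaneous, 221, 601 and 14.2 in type 1 transplanted and 12.3, 25.2 and 20.96 in type 1 spontaneous tumours. Gimap3 is a close relative of Gimap5, and the pair shares near-identical transcript stretches: 537 windows of 75 bases match at up to 2 mismatches, 21.4% of those of Gimap3 and 12.7% of those of Gimap5. Reads from these stretches may have been split between both genes or left uncounted, so their levels are less certain than those of the other 6 members, none of which shares such a window. Gimap8 had 940.3 and 110.0 normalised counts in type 2 transplanted MDM, 31.1 in type 2 spontaneous MDM, 1255, 1762, 1319 and 1622 in type 1 transplanted MDM, and 56.2 and 11.7 in type 1 spontaneous MDM. In microglia Gimap8, the least abundant member, held 1.64, 9.9 and 11.1 in type 2 transplanted and 7.61, 0 and 2.24 in type 1 transplanted tumours, and no read in the 6 spontaneous libraries. Gimap8 had 2, 13 and 14 reads in type 2 transplanted and 7, 0 and 3 in type 1 transplanted microglia. Some of these libraries lay at or below the limit of 3 reads, so no fold of Gimap8 is given among microglia. Against that limit it was at least 9.47-fold higher in spontaneous MDM than in spontaneous microglia, and at least 6.14-fold without type 1 spontaneous MDM replicate 1. In type 1 spontaneous tumours the ratio of the MDM mean to the microglia mean was 112 for Gimap3 and 37.6 for Gimap4, beside 93.0 for Cd3e. Without type 1 spontaneous microglia replicate 3 it was 91.8 for Gimap4, and without replicate 1 it was 150.3 for Cd3e. Cd3g had 4, 3 and 0 reads in those microglia libraries, so no ratio is given for it.

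Per kilobase of merged exon (GENCODE vM21), the order of the members differed between the cell types. In type 1 transplanted MDM Gimap4 led with 16523 ± 1799 normalised counts per kb, followed by Gimap3 with 11698 ± 1346 (SD, n = 4). Gimap6 with 5305 ± 655, Gimap7 with 4225 ± 163 and Gimap1 with 4143 ± 522 came next, and Gimap7 and Gimap1 did not differ beyond their spread. Gimap9 with 2661 ± 476, Gimap5 with 985 ± 142 and Gimap8 with 402 ± 65.5 were lowest. In the 12 microglia libraries the order began with Gimap1 at 228 ± 78.6, Gimap9 at 197 ± 47.9 and Gimap6 at 186 ± 117 normalised counts per kb, which did not differ beyond their spread (SD, n = 12). Gimap4 at 70.5 ± 109.8, Gimap3 at 37.4 ± 66.4, Gimap5 at 23.9 ± 17.6 and Gimap7 at 20.2 ± 38.8 did not differ beyond their spread, and Gimap8 stood at 0.731 ± 1.15. In the 6 spontaneous microglia libraries alone Gimap5 stood at 22.5 ± 19.9, Gimap4 at 10.6 ± 17.2 and Gimap3 at 6.31 ± 2.50 (SD, n = 6). Gimap7 and Gimap8 stood at 0. Gimap5 ran from 11.1 to 62.9 there and lay above Gimap3, which ran from 3.02 to 9.79. Gimap4, at 0 to 44.75, overlapped both. Exon length is a property of the annotation and does not account for the isoforms used.

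The share of 4 members in the family sum was lower in MDM than in microglia. Gimap1, Gimap5, Gimap6 and Gimap9 together made up 38.9 and 37.6% of the sum in type 2 transplanted, 47.3% in type 2 spontaneous, 36.9, 35.5, 34.3 and 35.8% in type 1 transplanted and 37.4 and 34.1% in type 1 spontaneous MDM. Across a family sum that ran from 6275 to 122517, that share kept within 34.1% to 47.3%. Single members varied more among MDM, from 18.1% to 34.1% of the sum for Gimap3, 21.6% to 34.3% for Gimap4, 2.63% to 9.99% for Gimap7 and 0.176% to 1.57% for Gimap8. In microglia it was 89.1, 90.2 and 83.2% in type 2 transplanted, 99.5, 98.8 and 99.1% in type 2 spontaneous, 73.5, 67.2 and 94.8% in type 1 transplanted and 97.4, 96.4 and 96.6% in type 1 spontaneous tumours. The lowest microglia shares were in type 1 transplanted replicates 1 and 2, the microglia libraries with the highest T cell marker sums, and the 6 spontaneous libraries held 96.4% to 99.5%. The grouping of the 4 genes was chosen after their values were seen.

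**Figure D2:**
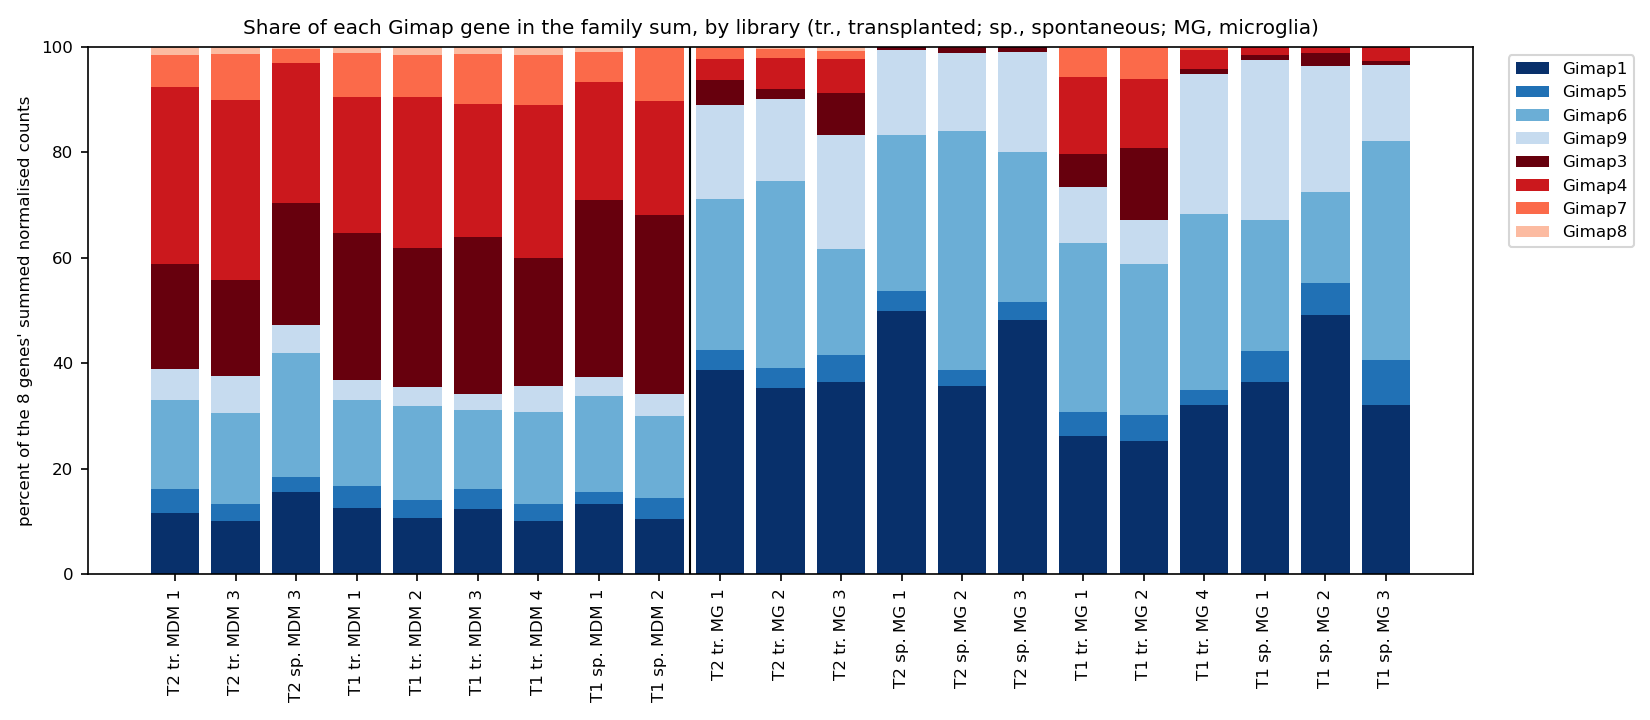
Share of each Gimap gene in the summed normalised counts of the 8 genes (percent, vertical axis) in each of 21 libraries, MDM to the left of the line and microglia (MG) to the right; blue shades are Gimap1, Gimap5, Gimap6 and Gimap9, red shades Gimap3, Gimap4, Gimap7 and Gimap8. The blue share is 34.1% to 47.3% in MDM and 67.2% to 99.5% in microglia.

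Within the 9 MDM libraries the members kept different distances from each other. The log2 ratio of Gimap1 to Gimap6 varied least, with an SD of 0.176, and that of Gimap3 to Gimap8 most, with an SD of 1.22. In the 12 microglia libraries the steadiest ratio was Gimap1 to Gimap9 (SD 0.442) and the least steady Gimap7 to Gimap9 (SD 3.11). Both spreads take in counting error, which is large where a gene has few or no reads.

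Cd3e and Cd3g followed the family in part. Cd3e had 524 and 790.4 normalised counts in type 2 transplanted MDM, 40.7 in type 2 spontaneous MDM, 11984, 16689, 27570.1 and 12546 in type 1 transplanted MDM, and 1785 and 1510.3 in type 1 spontaneous MDM. In microglia its normalised counts were 25.4, 88.3 and 102 in type 2 transplanted, 0, 8.08 and 19.7 in type 2 spontaneous, 312, 658 and 5.96 in type 1 transplanted and 31.2, 18.7 and 3.22 in type 1 spontaneous tumours. Cd3g had 1256 and 548 normalised counts in type 2 transplanted MDM, 72.9 in type 2 spontaneous MDM, 16531, 10455, 15043 and 8317 in type 1 transplanted MDM, and 714 and 656 in type 1 spontaneous MDM. Cd3g is encoded near Cd3e on chromosome 9 and belongs to the same receptor complex. In microglia its normalised counts were 20.5, 30.5 and 45.9 in type 2 transplanted, 0, 0 and 4.28 in type 2 spontaneous, 261, 336 and 2.24 in type 1 transplanted and 4.46, 2.8 and 0 in type 1 spontaneous tumours. Type 1 transplanted MDM was again the highest group, but type 2 MDM parted from the family: type 2 transplanted replicate 1 held 66289 Gimap counts beside 1780.5 for Cd3e and Cd3g together. The ratio of the Gimap sum to the Cd3e and Cd3g sum was 37.2 and 5.92 in type 2 transplanted, 74.0 in type 2 spontaneous, 3.96, 4.51, 2.51 and 4.96 in type 1 transplanted and 2.51 and 3.06 in type 1 spontaneous MDM. All 6 type 1 MDM libraries lay between 2.51 and 4.96, below all 3 type 2 MDM libraries. Transcripts of NK cells, which are also known to express Gimap genes, were present too. The 5 NK cell markers (Ncr1, Klrb1c, Klra8, Gzma and Prf1) summed to 172379 and 13758 in type 2 transplanted, 22749.7 in type 2 spontaneous, 58900.5, 59551, 56983 and 80449.9 in type 1 transplanted and 1054 and 4779 in type 1 spontaneous MDM. Type 2 transplanted replicate 1 held the highest NK cell sum, and the 4 type 1 transplanted libraries came next. The part of these cells in the Gimap levels was not tested.

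In microglia the ratio spread widely. It was 20.4, 20.8 and 11.2 in type 2 transplanted and 6.31, 4.42 and 169 in type 1 transplanted tumours. It was 33.1 and 50.1 in type 1 spontaneous replicates 1 and 2, and 233 and 57.1 in type 2 spontaneous replicates 2 and 3. The 169, in replicate 4, rests on 11 reads of Cd3e and Cd3g and the 233 on 7, so both are imprecise. Type 2 spontaneous replicate 1 had 1220 reads of the family and no read of Cd3e or Cd3g, and type 1 spontaneous replicate 3 had 2 reads of Cd3e and none of Cd3g, so no ratio is given for either. In type 2 spontaneous replicate 1, 5 of the 6 T cell markers were at 0, the NK cell markers summed to 97.3 normalised counts with 3 of 5 at 0, and Gimap1 stood at 790.2 and Gimap6 at 467, inside the range of the other microglia libraries. The summed level of Gimap3, Gimap4, Gimap7 and Gimap8 there was 7.79, the lowest of all 21 libraries. In type 1 transplanted microglia replicate 2, with the highest Cd3e and Cd3g sum of any microglia library (994), the same 4 genes summed to 1442. There Gimap1, Gimap5, Gimap6 and Gimap9 summed to 2950.1, against 1575 in type 2 spontaneous replicate 1. Type 1 transplanted microglia replicate 1, with the next highest Cd3e and Cd3g sum (573), had 2660 for Gimap1, Gimap5, Gimap6 and Gimap9. Type 1 spontaneous replicate 3, with a Cd3e and Cd3g sum of 3.22, had 2955 for them. Type 2 transplanted microglia replicate 3, with a Cd3e and Cd3g sum of 148, had 1380 for them. In the remaining microglia libraries, with Cd3e and Cd3g sums of 8.08 to 119, these genes summed to 834.5 to 2228.

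**Figure D3:**
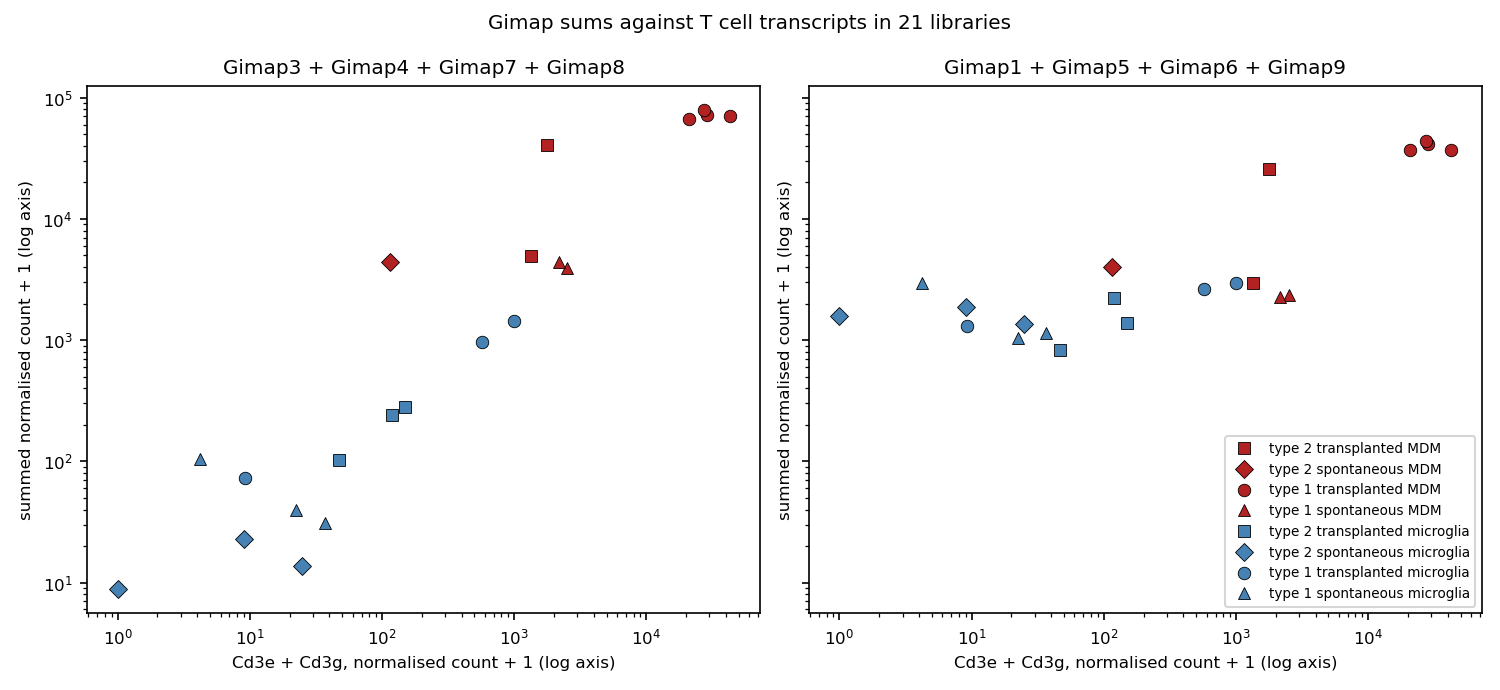
Summed normalised count + 1 of Gimap3, Gimap4, Gimap7 and Gimap8 (left panel) and of Gimap1, Gimap5, Gimap6 and Gimap9 (right panel) against that of Cd3e and Cd3g, both axes logarithmic; each point is 1 of 21 libraries, red for MDM and blue for microglia, with a marker shape for each tumour class. Among microglia the left sums span 7.79 to 1442 and the right sums 834 to 2955.

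The fit of MDM against microglia gave the 8 members log2 differences from 1.55 ± 0.28 for Gimap9 to 7.42 ± 0.56 for Gimap7, with a median of 4.51, against a median of 0.07 over all 17216 genes tested. That median was 3.44 with a pseudocount of 8 and 2.91 on the deposited values. Gimap7 and Gimap8, with no read in spontaneous microglia, stood at 5.76 and 4.01 with a pseudocount of 8. All 8 members passed the filter on low values. Gimap3, Gimap4 and Gimap8 had every MDM library above every microglia library, 3 of 8 members, where 3.80% of all tested genes had such a separation upward; the members were chosen on these libraries, so nothing is read from the count. For Gimap8 the margin was 11.7 against 11.1 normalised counts. Cd3e stood at 5.07 ± 0.75 and Cd3g at 6.40 ± 0.71. Without the 4 type 1 transplanted MDM libraries and type 2 transplanted replicate 1 the median of the members was 3.12, with Gimap9 at 0.43, Gimap1 at 0.57, Gimap6 at 1.64 and Gimap5 at 1.66, against Gimap8 at 4.58, Gimap3 at 6.15, Gimap4 at 7.03 and Gimap7 at 7.09.

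For transplanted against spontaneous MDM the members differed by 2.47 ± 0.87 (Gimap3) to 4.55 ± 0.85 (Gimap8) on the log2 scale, with a median of 3.01, against 0.02 over all tested genes. Cd3e stood at 3.63 ± 1.18 and Cd3g at 3.82 ± 1.13. In type 1 tumours alone, the mean of the 4 transplanted libraries over that of the 2 spontaneous ones was 13.8 for Gimap3, 16.6 for Gimap1, 17.1 for Gimap6, 17.5 for Gimap9, 19.3 for Gimap7, 20.2 for Gimap5, 21.4 for Gimap4 and 43.9 for Gimap8, and it was 10.4 for Cd3e and 18.4 for Cd3g. The ratio of Gimap8 was 127 without type 1 spontaneous replicate 1, which had 56.2 normalised counts, and 26.5 without replicate 2, which had 11.7. Without type 2 transplanted replicate 1 the members' median in both tumour types together was 2.22.

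In type 2 against type 1 MDM, averaged over transplanted and spontaneous tumours, all 8 members stood lower, by -0.34 ± 0.45 (Gimap9) to -1.84 ± 0.89 (Gimap7), with a median of -0.85 against -0.04 over all tested genes. The type 2 transplanted libraries differed by far more than that among themselves, and without replicate 3 of that group 4 members stood higher in type 2 MDM, Gimap1 at 0.033, Gimap6 at 0.064, Gimap4 at 0.10 and Gimap9 at 0.36. In spontaneous tumours alone the single type 2 library lay above both type 1 libraries for the same 4 genes. The T cell genes stood lower by more, at -4.98 ± 1.18 for Cd3e and -3.54 ± 1.13 for Cd3g.

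In transplanted against spontaneous microglia the members parted along the same line as in the make-up of the sum. Gimap1 differed by 0.04 ± 0.40, Gimap9 by 0.12 ± 0.34, Gimap5 by 0.18 ± 0.54 and Gimap6 by 0.38 ± 0.49 on the log2 scale, all less than their standard errors. With quantile normalization Gimap1 turned slightly negative, at -0.02. Gimap3 stood 2.49 ± 0.67, Gimap4 4.41 ± 0.65 and Gimap7 5.52 ± 0.69 higher, beside 3.23 ± 0.91 for Cd3e and 4.38 ± 0.87 for Cd3g; these values rest on groups with few or no reads and so on the pseudocount of 1. With a pseudocount of 8 they were 2.14 for Gimap3, 3.10 for Gimap4, 2.86 for Gimap7, 2.44 for Cd3e and 2.67 for Cd3g. Gimap7 had every transplanted library above every spontaneous one, 1 of 8 members, where 0.714% of all tested genes did, and nothing is read from that count. Without type 1 transplanted replicates 1 and 2, the pair with the high T cell marker sums, Gimap3 stood at 0.96, Gimap4 at 3.26 and Gimap7 at 3.83, while Gimap1 stood at -0.37, Gimap5 at -0.55, Gimap6 at -0.08 and Gimap9 at 0.11. For type 2 against type 1 microglia the 7 members other than Gimap8 differed by -2.82 ± 0.65 (Gimap4; -1.76 with a pseudocount of 8) to -0.11 ± 0.40 (Gimap1). The median of all 8 was -0.52, against -0.02 over all tested genes, and 0 of 8 members had groups without overlap, where 0.128% of tested genes lay wholly higher and 0.325% wholly lower. Gimap1 was slightly lower in type 2 microglia, and slightly higher after rescaling to equal totals. That median was 0.21 without type 1 transplanted replicates 1 and 2.

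Genes outside the family were tested in the same fit, and each adjusted p below comes from limma-trend, adjusted by Benjamini-Hochberg over the 17216 genes. Of 21 T cell genes tested 21 were higher in MDM than in microglia and 0 lower, where 23.0% of all tested genes were called higher and 19.8% lower. They included Zap70, a kinase of T cell receptor signalling (6.31 ± 0.54, adjusted p = 6.4e-08), and the adhesion molecule gene Cd2 (7.56 ± 0.65, adjusted p = 6.7e-08). All 17 NK cell genes were higher, led by the granule protease gene Gzma (8.88 ± 0.68, adjusted p = 2.1e-08) and the NK receptor gene Klra8 (7.12 ± 0.56, adjusted p = 2.9e-08). Of 13 B cell genes 10 were higher, among them Ms4a1, which encodes CD20 (7.09 ± 0.60, adjusted p = 5.1e-08), and 1 was lower, the inhibitory receptor gene Cd22 (-0.84 ± 0.21, adjusted p = 0.003). Without the 4 type 1 transplanted MDM libraries 17 of 21 T cell, 17 of 17 NK cell and 7 of 13 B cell genes were higher.

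In transplanted against spontaneous MDM, 3 of 21 T cell genes, 4 of 17 NK cell genes and 5 of 13 B cell genes were higher and none lower, where 3.65% of tested genes were called higher and 3.41% lower. They included the T cell transcription factor gene Bcl11b (4.64 ± 0.85, adjusted p = 0.0027), the NK receptor gene Klra9 (5.14 ± 0.98, adjusted p = 0.0035) and the B cell transcription factor gene Pax5 (4.18 ± 0.83, adjusted p = 0.0048). Without type 2 transplanted replicate 1 the counts were 2, 3 and 1. Type 2 against type 1 MDM gave 4 lower T cell genes of 21, where 0.215% of tested genes were called higher and 1.36% lower: Bcl11b (-5.57 ± 0.85, adjusted p = 0.0042), Cd5, Foxp3 and Lat. Foxp3 lost its call without type 1 spontaneous replicate 2, without type 1 transplanted replicate 3 and with voom, and Lat in 7 of 16 alternatives, 6 of them with a single library left out. No NK or B cell gene passed the test there. Without type 2 transplanted replicate 1, 7 of 21 T cell and 3 of 13 B cell genes were lower. Of the same lists, 6 of 21 T cell and 4 of 17 NK cell genes were higher in transplanted than in spontaneous microglia, where 1.00% of tested genes were called higher and 0.836% lower, and Zap70 (4.06 ± 0.66, adjusted p = 0.0029) and the perforin gene Prf1 (4.20 ± 0.84, adjusted p = 0.016) led them. Both calls were also lost with a pseudocount of 8, on the deposited values and with voom. None of either list was called without type 1 transplanted microglia replicates 1 and 2. Between type 2 and type 1 microglia 1 gene of these lists was called, the NK receptor gene Klrb1c (-2.54 ± 0.52, adjusted p = 0.033), where 0.0465% of tested genes were called higher and 0.424% lower. That call was lost in 17 of 21 alternatives, among them the one without type 1 transplanted replicates 1 and 2.

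A list of 24 genes of cytokine signalling, survival and autophagy was examined beside the family. Whether GIMAP proteins act through these genes was not tested. In MDM against microglia 10 were higher (41.7%) and 3 lower (12.5%), where 23.0% of all tested genes were called higher and 19.8% lower, with a median of 0.31 against 0.07 over all tested genes. The transcription factor genes of cytokine signalling Stat5a (2.02 ± 0.21, adjusted p = 4.6e-07) and Stat5b (1.64 ± 0.19, adjusted p = 2.1e-06) were higher, as was the survival gene Bcl2 (2.702 ± 0.38, adjusted p = 1.3e-05). Bcl2l1, which encodes the survival protein BCL-XL, was lower (-1.22 ± 0.13, adjusted p = 4.8e-07), as were the calcineurin subunit gene Ppp3ca (-1.16 ± 0.22, adjusted p = 0.00027) and the autophagy gene Gabarapl1 (-0.74 ± 0.15, adjusted p = 0.00055). Gabarapl2, whose human protein binds GIMAP6, was higher by 0.62 ± 0.20 (adjusted p = 0.016), and the interleukin 7 receptor gene Il7r by 1.45 ± 0.46 (adjusted p = 0.017). Without the 4 type 1 transplanted MDM libraries 6 of the 24 were higher and 3 lower, and the calls of Gabarapl2 and Il7r were lost. In MDM, Foxo1, a transcription factor gene active in lymphocyte survival, was higher in transplanted tumours (1.23 ± 0.32, adjusted p = 0.024) and lower in type 2 tumours (-2.60 ± 0.32, adjusted p = 0.00094), as was Ppp3ca (1.36 ± 0.34, adjusted p = 0.021, and -1.66 ± 0.34, adjusted p = 0.022). Bcl2l1 was lower in transplanted MDM (-0.76 ± 0.20, adjusted p = 0.027), and the other 21 and 22 genes of the list did not pass these tests. In transplanted MDM the call of Foxo1 was lost without type 1 spontaneous replicate 1, without type 2 transplanted replicate 1 and with voom. That of Ppp3ca was lost without type 2 transplanted replicate 3 and with voom. The call of Bcl2l1 was lost without type 1 spontaneous replicate 2 and without type 2 transplanted replicate 1. It was also lost with quantile normalization and after rescaling to equal totals. Between the tumour types the call of Ppp3ca was lost without type 1 spontaneous replicate 2 and with voom. Without type 2 transplanted replicate 1, 1 of the 24 (Ppp3ca) was higher and 0 lower in transplanted MDM. In both microglia comparisons 0 of the 24 passed limma-trend.

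Of 20 other protein-coding genes within 500 kb of the cluster, 13 had enough reads to be tested. In MDM against microglia they differed by -1.30 to 0.73 on the log2 scale, and the members by 1.55 to 7.42. In MDM against microglia Tmem176a, which encodes a membrane protein of myeloid cells and lies 70.6 kb away, was higher (0.73 ± 0.28, adjusted p = 0.039), a call lost in 14 of 30 alternatives, 11 of them with a single library left out. Zfp467, a zinc finger gene 201 kb away, was lower (-0.94 ± 0.15, adjusted p = 6.1e-05), as was the proton pump subunit gene Atp6v0e2 (-1.21 ± 0.41, adjusted p = 0.022). The call of Atp6v0e2 was lost without the 4 type 1 transplanted MDM libraries, without type 1 spontaneous MDM replicate 2 and after rescaling to equal totals. The 2 nearest tested genes, Zfp775 at 25.6 kb and Repin1 at 48.1 kb, both zinc finger genes, stood at 0.12 ± 0.31 (adjusted p = 0.78) and -0.57 ± 0.23 (adjusted p = 0.057). Tmem176b at 63.0 kb stood at 0.50 ± 0.25 (adjusted p = 0.11). In transplanted against spontaneous MDM, 0 neighbours were higher and 2 lower: Zfp467 (-0.85 ± 0.24, adjusted p = 0.039) and Gpnmb, a glycoprotein gene of macrophages 266 kb away (-4.25 ± 1.00, adjusted p = 0.015). Zfp467 lost its call in 8 of 16 alternatives, 6 of them with a single library left out, and Gpnmb without type 1 spontaneous replicate 1 and without type 2 transplanted replicate 1. None was called between type 2 and type 1 MDM. Among microglia Atp6v0e2 was higher in transplanted tumours (2.87 ± 0.50, adjusted p = 0.0049) and lower in type 2 tumours (-2.81 ± 0.50, adjusted p = 0.013). Both calls were lost without type 1 transplanted microglia replicates 1 and 2, and that between tumour types also without replicate 1 alone.

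**Figure D4:**
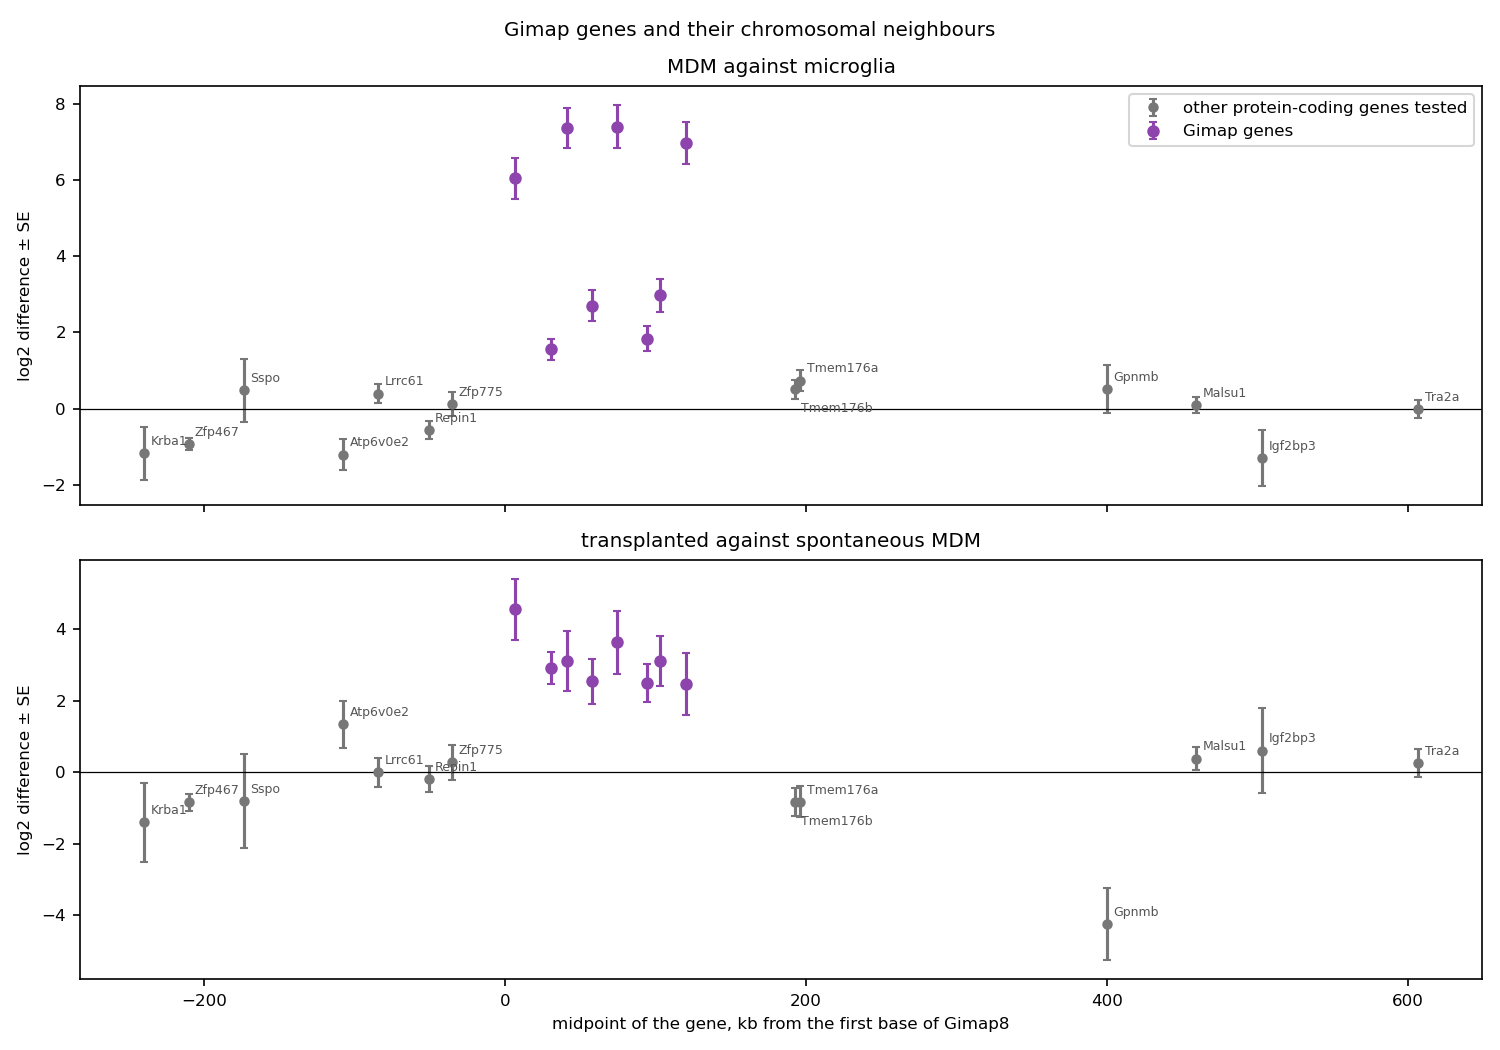
Log2 difference (± standard error of the fit) of the 8 Gimap genes (purple) and of 13 tested protein-coding neighbours (grey) by the distance of the gene's midpoint from the first base of Gimap8, in kb; the upper panel is MDM against microglia and the lower transplanted against spontaneous MDM. In the upper panel the members lie between 1.55 and 7.42 and the neighbours between -1.30 and 0.73.

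Across all 21 libraries the genes outside the family whose levels kept the steadiest distance from the mean of the 8 members were, by the SD of the log2 ratio, Septin1 (0.780), Tbc1d10c (0.864), Mgst2 (0.980), Ptprcap (1.00), Camk4 (1.01) and Ltb (1.01). Septin1 is a cytoskeletal GTPase gene, Tbc1d10c encodes an inhibitor of calcineurin in lymphocytes, Ptprcap encodes a protein bound to CD45 in lymphocytes, Camk4 a calcium-dependent protein kinase, Ltb the cytokine lymphotoxin beta and Mgst2 a microsomal glutathione transferase. Septin1 held 609 to 2554 normalised counts in type 2 transplanted, 682 in type 2 spontaneous, 4529 to 10867 in type 1 transplanted and 682 to 788 in type 1 spontaneous MDM, and 7.79 to 209 in microglia. Cd3e, with an SD of 1.98, ranked 628th and Cd3g, with 2.06, ranked 752nd of 17208 genes by this measure. The members themselves had SDs from 1.11 (Gimap5) to 2.19 (Gimap7), so single members differed from their own mean by more than these 6 genes did.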

How the data were processed

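The deposited table held log2 values from the authors' variance-stabilising transformation of read counts, in which a gene with no reads has 4.22. Per the submitters' processing notes, the tools were STAR 2.7.8a and DESeq2 with genome mm10. Per the labels' protocols, RNA was extracted with TRIzol and amplified with the SMART-Seq kit. The transformation was inverted, and 100% of the 645729 values came back as whole reads to within 0.001. Normalised counts are these reads over the size factors implied by the table. limma-trend (limma 3.58.1, R 4.3.3; python 3.11.15, pandas 2.3.3, numpy 2.4.6, matplotlib 3.10.9) was fitted to log2(normalised count + 1) of 17216 genes with at least 10 normalised counts in at least 3 libraries, with 1 mean for each of 8 groups weighted equally in a contrast. Calls are at a Benjamini-Hochberg adjusted p under 0.05, and the method was tested on simulated data. The labels state no strand, so overlapping genes may share reads.

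The members, the gene lists and the motifs were chosen with earlier results of these data known. Named genes are the 8 members, Cd3e and Cd3g, up to 4 called genes with the smallest p per list, neighbours within 500 kb, and the 6 genes most like the family. Gabarapl2, Il7r, Gabarapl1, Cd22, Fn1 and, for MDM against microglia, Ppp3ca fall outside this rule and were named after their values were seen. Replicate numbers follow the sample descriptions. Alternatives were another pseudocount (8), another filter (50) or none, quantile normalization, rescaling to equal totals, the deposited values, a replicate block, single libraries left out and, added after seeing the data, voom on the recovered reads and groups of libraries left out.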

Additional observations from a re-analysis of the deposited data

Results flagged for a closer look

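In the type 1 transplanted MDM, replicate 4 stood apart from the other 3 libraries in Gimap3, with 24982 normalised counts against 31425, 32448 and 31729. Its gap to the nearest library was 0.877 of the range of the group on the log2 scale. It was 1 of 10 sets of a gene and a group of 4 libraries that were examined, of which chance gives about 1 in 20, and groups of 3 or fewer were not examined.

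The difference between type 2 and type 1 MDM ran one way in transplanted and the other way in spontaneous tumours for 3 members, with every library on its side. Gimap1 differed by -2.34 in transplanted and 0.77 in spontaneous tumours (log2), a gap of -3.12. Gimap4 differed by -1.96 and 0.65, a gap of -2.62. Gimap6 differed by -2.25 and 0.86, a gap of -3.10. The gap was not tested, type 2 spontaneous MDM is a single library, and the T cell marker sum is also highest in type 1 transplanted MDM; its part in this was not tested.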

How the results depend on the processing

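The median log2 difference of the 8 members between MDM and microglia was 4.51. It was 3.44 with a pseudocount of 8, 2.91 on the deposited values and 3.12 without the 4 type 1 transplanted MDM libraries and type 2 transplanted MDM replicate 1. Between type 2 and type 1 microglia the median was -0.52, and it turned to 0.21 without type 1 transplanted microglia replicates 1 and 2, as did Gimap3 (0.78), Gimap7 (1.03), Cd3e (0.94) and Cd3g (1.32). Without type 2 transplanted MDM replicate 3, Gimap1 (0.033) and Gimap9 (0.36) turned between type 2 and type 1 MDM, where leaving out single libraries gave -1.60 to 0.033 for Gimap1 and -1.04 to 0.36 for Gimap9. Of 1040 single-gene log2 differences 1003 moved by less than the spread between libraries, 31 by more in the same direction, and these 6 turned by more than it. A further 19 changed sign within that spread, 10 of them between transplanted and spontaneous microglia, 7 between type 2 and type 1 microglia and 2 between type 2 and type 1 MDM. The cause was not tested.

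Genes called between MDM and microglia numbered 7356, against 4829 without the 4 type 1 transplanted MDM libraries and 4133 without type 2 transplanted MDM replicate 1 as well. Type 2 against type 1 MDM gave 271, and 50 with voom. Transplanted against spontaneous microglia gave 317, against 169 without a filter, 196 with voom and 71 without type 1 transplanted microglia replicates 1 and 2. Type 2 against type 1 microglia gave 81, against 32 with a filter at 50 and 0 without those replicates, where limma-trend gave 679 genes an unadjusted p under 0.05.

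With single libraries left out, calls ranged from 6644 to 7567 (MDM against microglia), 775 to 1847 (transplanted MDM), 96 to 578 (type 2 MDM), 111 to 1535 (transplanted microglia) and 34 to 124 (type 2 microglia). In the same order the lowest and highest were without type 2 transplanted MDM replicate 1 and type 1 spontaneous microglia replicate 3, type 2 transplanted MDM replicates 1 and 3, type 1 spontaneous MDM replicate 2 and type 1 transplanted MDM replicate 1, type 2 transplanted microglia replicate 2 and type 2 spontaneous microglia replicate 3, and type 1 transplanted microglia replicate 1 and type 1 spontaneous microglia replicate 2. The members' medians ranged from 4.10 to 4.93, 2.22 to 3.74, -1.67 to -0.00060, 1.05 to 1.55 and -0.88 to -0.19. The single type 2 spontaneous MDM library could not be left out.

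Rescaling to equal totals moved the median of all genes by 0.22 (MDM against microglia), 0.30 (transplanted MDM), 0.13 (transplanted microglia) and 0.11 (type 2 microglia). The share of calls that were higher was 67.4%, 79.5% and 64.8% in the first 3, against 53.7%, 51.7% and 54.6%. Quantile normalization moved the first median by -0.15 and that of type 2 MDM by 0.10.

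Samples with the same replicate number were not paired in the main fit. Of 7 pairs of MDM and microglia 2 had deviations correlated over 0.1, and all 7 correlations lay between 0.035 and 0.241. In groups this small these values cannot show whether such samples came from the same tumour. With the replicate block (consensus correlation 0.14) 7815, 1250, 280, 316 and 81 genes were called, and the members' medians were 4.54, 2.97, -0.85, 1.29 and -0.52. At these depths a member without reads in microglia may still be present below 2.24 to 4.84 normalised counts.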

Other observations

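The interferon-inducible GTPases, another family of GTP-binding proteins of immune defence, were described with a list of 13 tested genes. In MDM against microglia 3 were higher (23.1%, the share of all tested genes being 23.0%) and 0 lower (19.8% of all tested genes), with Gbp8 at 1.71 ± 0.31 (adjusted p = 0.00019) and Gbp4 at 1.81 ± 0.36 (adjusted p = 0.0005), and the list's median was 0.53. In transplanted against spontaneous MDM 4 were higher (30.8%, against 3.65% of all tested genes), led by Gbp6 (2.57 ± 0.47, adjusted p = 0.0024) and Gbp7 (3.09 ± 0.64, adjusted p = 0.0058), and 3 without type 2 transplanted replicate 1. Transplanted against spontaneous microglia had 5 higher (38.5%, against 1.00% of all tested genes), led by Gbp8 (4.07 ± 0.38, adjusted p = 1.4e-05), and 2 without type 1 transplanted replicates 1 and 2. None passed limma-trend between the tumour types. All adjusted p-values are from limma-trend.

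Of the other lists, all 14 homeostatic microglia genes were lower and all 14 monocyte-derived macrophage genes higher in MDM than in microglia. The call of Fn1, a gene of the macrophage list, was lost in 17 of 30 alternatives. Without the 4 type 1 transplanted MDM libraries 13 of those 14 macrophage genes were higher. Of 13 dendritic cell genes 10 were higher and 2 lower, of 10 endothelial and mural cell genes 2 were higher and 1 lower, and of 9 platelet and megakaryocyte genes 3 were higher and 4 lower, where 23.0% of all tested genes were called higher and 19.8% lower. The endothelial and mural counts were not above that background, and 1 platelet and megakaryocyte call was lost in 17 of 30 alternatives. In transplanted against spontaneous MDM 7 of the 14 homeostatic microglia genes were lower, where 3.41% of all tested genes were called lower. They were led by Tmem119 (-2.81 ± 0.46, adjusted p = 0.0011 in limma-trend), and 5 were lower without type 2 transplanted replicate 1.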
